A study of Mus musculus with 576 samples.

Results

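The islet hormone genes described here are Gcg, Ins1, Ins2, Pyy, Ppy, Sst, Ghrl and Iapp, 8 of the 36658 genes in the count tables, which cover single cells of embryonic mouse dorsal pancreas at day E12.5. They were taken by symbol as a fixed list, and all 8 had a row in the tables of all 3 lines. The cells were GFP+ cells sorted by flow cytometry into 96-well plates and profiled by Smart-seq2, which makes 1 library per cell and attaches no molecular identifiers. In the Nkx2.5-Cre;mTmG and Nkx3.2-Cre;mTmG lines, Cre recombinase under control of a mesodermal gene switches on membrane GFP from the R26 locus in the cells that express it and in all their descendants. Prox1-GFP embryos carry a transgene that reports expression of Prox1, a transcription factor of the pancreatic epithelium. All lines were kept on a C57BL/6J background and embryos of both sexes were used. Each line filled 2 plates, and 93 wells of plate 8A and 92 of plate 8B of the Prox1-GFP line passed the filters on depth, as did 90 and 83 of the Nkx2.5 line and 95 and 96 of the Nkx3.2 line. Since no label ties a cell to an animal, embryo or litter, a line is treated as 1 sample, cells are not replicates, and no comparison below carries a test.

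Islet hormones are made as prohormones, cut by convertases, and stored in dense-core granules. In the adult islet most cells make 1 main hormone, with glucagon from Gcg in α cells, insulin from Ins1 and Ins2 in β cells, somatostatin from Sst in δ cells, pancreatic polypeptide from Ppy in PP cells and ghrelin from Ghrl in ε cells, while Iapp (amylin) is released with insulin and Pyy (peptide YY) is best known from the gut. In the mouse embryo the first hormone cells of the dorsal bud arise early from Neurog3+ progenitors, many of them contain glucagon, and most β cells form later.

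Epithelial cells were taken as Prox1-GFP cells with Epcam at 20 CPM (counts per 1000000 counts of the cell) or more. This gave 59 cells on plate 8A and 49 on plate 8B, and no Prox1-GFP cell lay between 3.67 and 30.3 CPM of Epcam. Within them, 19 cells (9 on 8A, 10 on 8B) had at least 3 of 6 endocrine markers (Neurod1, Isl1, Pax6, Insm1, Chga and Chgb, none of them a hormone gene) at 20 CPM or more and are called endocrine-marker cells. The other 89 epithelial cells had no marker (82 cells) or 1 marker (7 cells), and of the 19, 18 had 5 or 6. The remaining 77 Prox1-GFP cells (34 and 43) had Epcam under 20 CPM. Their summed mesenchyme markers had a median of 4332 CPM, against 199.3 CPM in the 89 cells, and Prox1 itself had at least 1 count in 36 of the 77, against 88 of 89 and 19 of 19 in the epithelial groups. Total counts per cell ranged from 555406 to 1213544 in the endocrine-marker cells and from 474482 to 1237713 in the other epithelial cells.

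In GENCODE M21 on GRCm38, Gcg lies at chr2:62474530-62483650 (minus strand), Pyy at chr11:102106676-102107832 (minus), Ppy next to it at chr11:102099930-102101319 (minus) and Iapp at chr6:142298423-142303961 (plus). Ghrl is on the same chromosome as Iapp at chr6:113716119-113719880 (minus), Sst is at chr16:23889573-23890958 (minus) and Ins1 at chr19:52264297-52265476 (plus). Ins2 is annotated at chr7:142678656-142743381 (minus), a span that includes long transcripts starting upstream of the insulin exons. Ins1 and Ins2 are near-identical copies in part, and 47 of the 1032 words of 31 bases in Ins1 transcripts also occur in Ins2. Their counts were not whole in 7 of 14 cells for Ins1 and 7 of 27 cells for Ins2, which is how reads split between genes appear, whereas the other 6 members had whole counts in every cell. Counts of the single insulin genes are uncertain for this reason. Ghrl shares 12.05% of its words with Gm44033, a gene model on the opposite strand inside it, and Smart-seq2 reads carry no strand to tell them apart.

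The 150 bases before the RefSeq start site (GRCm38.p6) are shown for the genes found together most often, Gcg, Pyy, Ppy and Iapp, and for Ins1 as an insulin gene. Each reads 5′ to 3′ on the strand of the gene, ends at the base before the start, and has the letters TATAA in capitals.
Gcg: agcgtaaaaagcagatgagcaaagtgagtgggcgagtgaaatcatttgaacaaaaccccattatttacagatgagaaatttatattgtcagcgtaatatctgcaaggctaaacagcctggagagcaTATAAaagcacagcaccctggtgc
Pyy: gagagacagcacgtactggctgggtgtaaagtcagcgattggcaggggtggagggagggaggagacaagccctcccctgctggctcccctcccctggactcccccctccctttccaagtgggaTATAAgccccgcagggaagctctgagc
Ppy: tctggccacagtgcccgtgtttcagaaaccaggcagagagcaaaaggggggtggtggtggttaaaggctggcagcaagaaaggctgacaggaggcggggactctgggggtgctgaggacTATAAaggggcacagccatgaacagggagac
Iapp: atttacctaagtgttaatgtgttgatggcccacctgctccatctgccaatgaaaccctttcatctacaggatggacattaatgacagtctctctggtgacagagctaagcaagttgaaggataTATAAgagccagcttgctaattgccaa
Ins1: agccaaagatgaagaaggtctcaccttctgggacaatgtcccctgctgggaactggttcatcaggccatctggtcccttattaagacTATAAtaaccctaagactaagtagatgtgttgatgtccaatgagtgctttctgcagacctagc
These windows lie at chr2:62483654-62483803 (minus) for Gcg, chr11:102107833-102107982 (minus) for Pyy, chr11:102101320-102101469 (minus) for Ppy, chr6:142298275-142298424 (plus) for Iapp and chr19:52264147-52264296 (plus) for Ins1. For Pyy the more upstream of 2 listed starts was taken. For Ghrl, whose window is not shown, only the most upstream of 4 was examined. TATAA began 24 bases before the start in Gcg, 27 in Pyy, 31 in Ppy, 27 in Iapp and 63 in Ins1, and was absent from the windows of Sst and Ghrl. On this strand, 9.99% of all 32851 promoter windows of this length held TATAA, and 3.52% held it within 40 to 16 bases before the start, where the first 4 of these genes have it. TAAT, a core of many homeodomain sites, occurred on either strand in the windows of Gcg, Ins1, Sst and Iapp and in 37.8% of all windows, and CANNTG, the letters bound by bHLH factors such as Neurod1 and Neurog3, in those of Gcg, Ins1, Pyy, Ghrl and Iapp and in 47.7% of all windows. Such matches describe letters and not binding. Ins2 is not among the windows.

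Hormone genes reached high levels in the endocrine-marker cells alone. Of all cells that passed in the 3 lines, none outside the 19 had any member at 100 CPM or more, and the highest values there were 65.5 CPM for Ins2, 63.3 for Ghrl, 44.02 for Sst, 40.2 for Iapp, 39.002 for Ins1, 30.7 for Pyy and 21.01 for Gcg, with Ppy at 0. All 8 members were at least 4-fold higher in the 19 endocrine-marker cells than in the 89 other epithelial cells, where 10.8% of the 12442 genes at 5 CPM or more in either group were higher and 11.7% were lower by that measure. The endocrine-marker cells were chosen by genes known to be expressed together with hormones, and nothing is read from the direction of these folds. With no count in the other epithelial cells, folds against a floor of 3 counts over the group were at least 10054 for Ppy, 5924 for Sst, 4742 for Ins1, 3403 for Ins2 and 1514 for Ghrl. The plot of single-cell levels by group shows how far apart the groups lay.

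**Figure D1:**
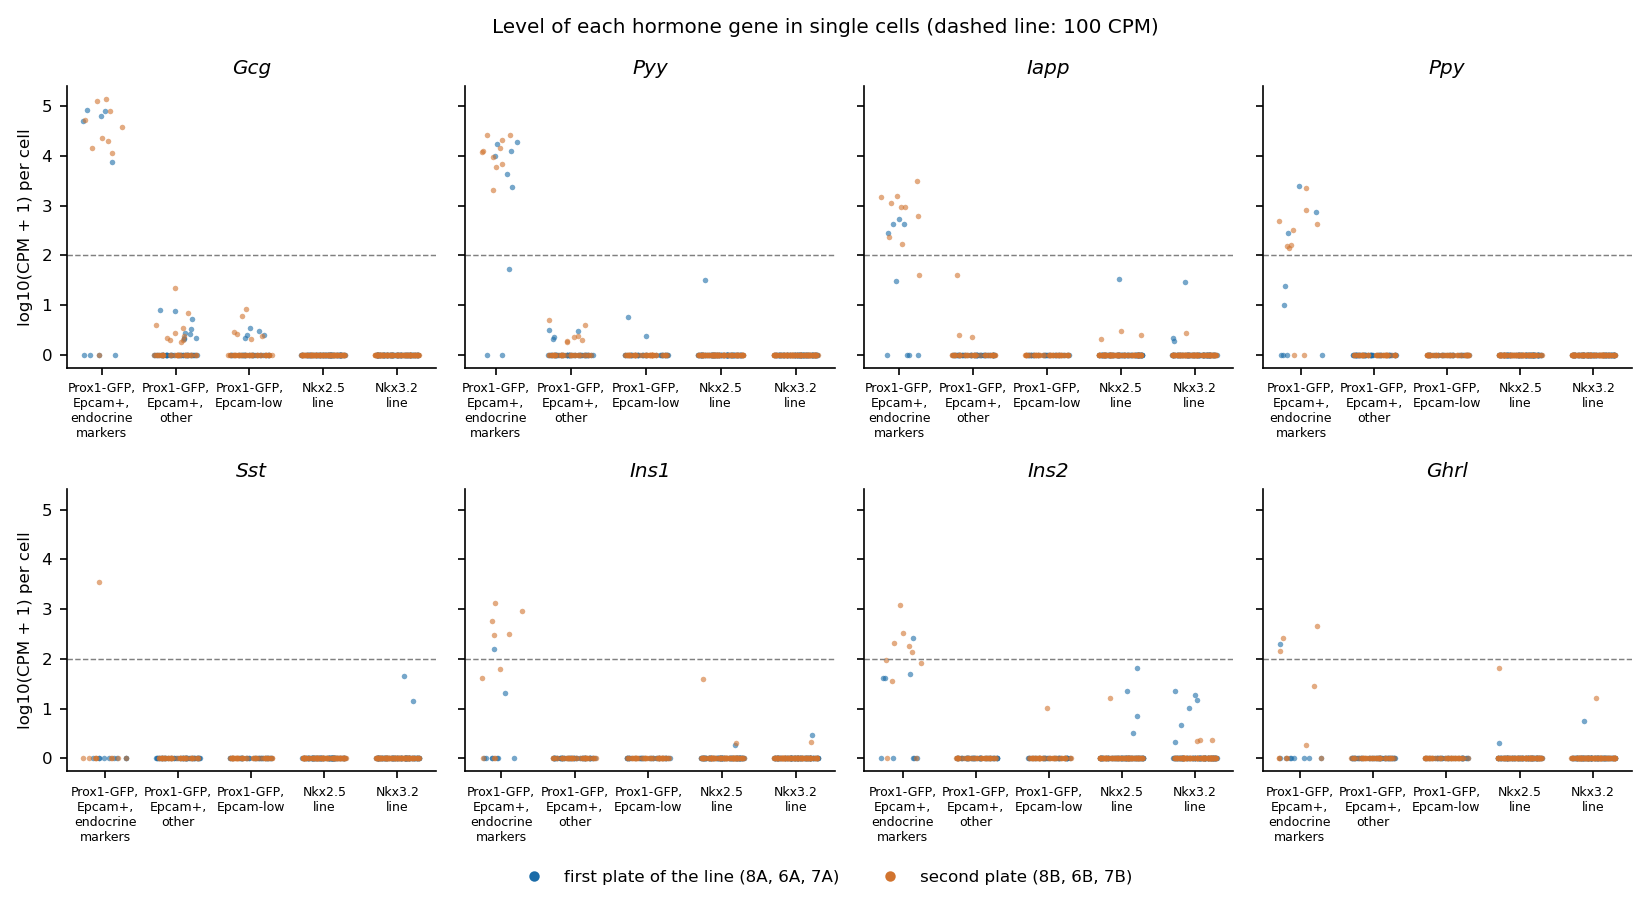
Level of the 8 hormone genes in each passing cell as log10(CPM + 1), by group, with points coloured by plate. Every point above the dashed line at 100 CPM belongs to the 19 endocrine-marker cells of the Prox1-GFP line, and Gcg and Pyy reach the highest levels.

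Gcg, the precursor of glucagon, was the highest member. It was at 0 in 5 endocrine-marker cells and between 7536 and 141047 CPM in the other 14, with a median of 50795 CPM over those 14, and no cell lay in between. Counts summed over the 19 cells gave 42460 CPM, against 0.716 CPM in the other epithelial cells (95% exact Poisson limits of the ratio 45453 and 78947, counting error only). The 14 cells were 5 of the 9 on plate 8A and 9 of the 10 on plate 8B, with summed levels of 29203 and 52371 CPM. As a share of the epithelial cells sorted from the Prox1-GFP line they made 12.96% (exact binomial 95% limits 7.27 and 20.8). The share in the unsorted bud is not known.

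Low counts of Gcg also appeared in cells without endocrine markers. At least 1 count was found in 19 of the 89 other epithelial cells, with 17 counts at most, and in 11 of the 77 Epcam-low cells, with 2 counts at most, but in no cell of the Nkx2.5 and Nkx3.2 lines, where 3 counts would correspond to 0.0170 and 0.0177 CPM. After thinning every cell to 100000 counts, Gcg was found in 14 endocrine-marker cells, 8 other epithelial cells and 3 Epcam-low cells. On the Prox1-GFP plates, wells of the other epithelial cells that shared neither a row nor a column with a well of at least 1000 CPM of Gcg had it in 1 of 22 cases (the cell with 17 counts), those sharing 1 of these in 11 of 44, and those sharing both in 7 of 23. For the Epcam-low cells these were 2 of 15, 4 of 43 and 5 of 19. The part of the plate layout in these counts was not tested.

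Pyy, which encodes peptide YY, was the member found at 100 CPM or more in the most cells. It was at 2111 to 26725 CPM in 16 of the 19 endocrine-marker cells, at 52.5 CPM in 1 and at 0 in 2, with a median of 9844 CPM over all 19. Its summed level was 10875 CPM, against 0.199 CPM in the other epithelial cells, where 11 of 89 cells had at least 1 count and none more than 4. All 10 endocrine-marker cells of plate 8B and 6 of the 9 of plate 8A were above 1000 CPM. The 16 cells made 14.8% of epithelial cells (limits 8.71 and 22.9), and each cell with any of the 8 genes at 100 CPM or more was among them.

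Ppy and Iapp formed a middle tier. Ppy, the gene of pancreatic polypeptide and a close relative of Pyy that lies beside it on chromosome 11, was at 100 CPM or more in 11 cells, between 140.8 and 2449 CPM, and at 8.92 and 22.97 CPM in 2 more. Only 2 cells passed 1000 CPM of Ppy (G2 on plate 8A and H3 on plate 8B), and no Ppy count occurred in any other passing cell of the series, against a summed level of 399.9 CPM in the 19. Iapp, the gene of amylin, was at 171.7 to 3091 CPM in 13 cells and at 30.1 and 39.1 CPM in 2 more, and its summed level of 630 CPM stood against 0.464 CPM in the other epithelial cells. Of the 35 Iapp counts in those 89 cells, 33 came from 1 cell.

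The insulin genes were low. Ins1 had at least 1 count in 9 endocrine-marker cells and reached 100 CPM in 6, from 159.5 to 1305 CPM. Ins2 had at least 1 count in 12 and reached 100 CPM in 6, from 139.4 to 1196 CPM. One or both reached 100 CPM in 8 cells, and the highest of both was in the same cell (H3 on plate 8B). Summed levels were 188.6 CPM for Ins1 and 135.4 CPM for Ins2 (133.9 and 83.4 CPM without the cell H3), with no count of either in the 89 other epithelial cells, where 3 counts in all would be 0.0398 CPM. In the Nkx lines, Ins2 had at least 1 count in 5 cells of the Nkx2.5 line and 9 of the Nkx3.2 line, at 65.5 CPM or less.

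Sst and Ghrl were rare. Somatostatin transcripts occurred in 1 endocrine-marker cell (A12 on plate 8B) at 3587 CPM, which is 1 of the 59 and 49 epithelial cells (0.926%, limits 0.0234 and 5.05), and in 2 cells of the Nkx3.2 line at no more than 44.02 CPM. Ghrl was at 145.3 to 467 CPM in 4 endocrine-marker cells and at 0.824 and 28.1 CPM in 2 more, with no count in any other Prox1-GFP cell. Its summed level of 60.2 CPM was 31.7 CPM without the cell A12.

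To order the members, levels were taken per kb of the longest annotated transcript. On this scale the summed levels in the 19 cells were 39026 CPM per kb for Gcg, 19594 for Pyy, 799.8 for Ppy, 751 for Iapp, 327 for Sst, 177.6 for Ins1, 147.5 for Ins2 and 67.6 for Ghrl. Pyy exceeded Ppy in all 17 cells with either. Neighbours elsewhere in this order were not apart in every cell, as Gcg exceeded Pyy in 11 cells and was below it in 6, Ppy exceeded Iapp in 6 and was below it in 10, and Ins1 exceeded Ins2 in 6 and was below it in 8. Sst owes its place above Ins1 to the cell A12, and was below Ins1 in 8 cells.

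The plates were not alike in their hormone levels. Between the endocrine-marker cells of plates 8A and 8B, 5 of the 8 members were at least 4-fold apart, all higher on 8B, while 19.8% of the 12003 genes at 5 CPM or more were that far apart in either direction. Ins1 was at 19.1 CPM on 8A and 315 CPM on 8B, Ins2 at 36.4 and 209 CPM, Iapp at 175.4 and 970 CPM and Ghrl at 21.3 and 89.3 CPM, and Sst was seen on 8B only. Gcg, Pyy and Ppy differed by 1.79, 2.06 and 1.51 times. With 9 and 10 cells per plate, these values rest on few cells each.

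Single-cell counts show how far hormone genes share cells. No epithelial cell had exactly 1 member at 100 CPM or more. Of the epithelial cells, 92 had none and 16 had at least 2, namely 2 members in 3 cells, 3 in 2 cells, 4 in 3 cells, 5 in 3 cells, 6 in 4 cells and all 8 in 1 cell. The 16 cells (6 on plate 8A, 10 on plate 8B) held 13 different combinations, and the most frequent of these were found in 2 cells each. With 20 CPM as the level, 17 cells had 2 or more members, and with 1000 CPM, 15 had.

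**Figure D2:**
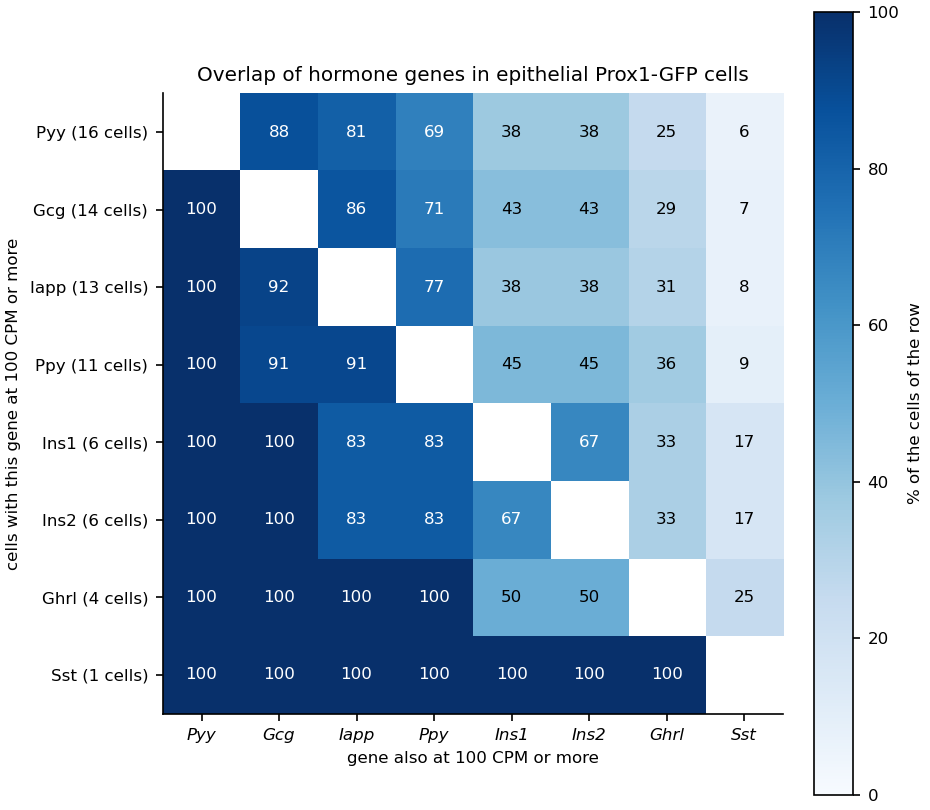
For each hormone gene (rows, with its number of epithelial cells at 100 CPM or more), the percentage of these cells in which another member (columns) also reached 100 CPM. The Pyy column is at 100% in every row, and all 6 cells with Ins1, all 6 with Ins2, all 4 with Ghrl and the 1 with Sst also had Gcg.

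Every pair shared at least 1 cell at 100 CPM or more, since cell A12 on plate 8B had all 8 members, and some gene pairs were nested. All 14 cells with Gcg also had Pyy, which is 100% of the Gcg cells and 87.5% of the Pyy cells. Each of the 6 Ins1 cells and 6 Ins2 cells had both Gcg and Pyy, so no cell had insulin transcripts at this level without glucagon transcripts. Of the 13 Iapp cells, 12 had Gcg (92.3%) and 5 had Ins1 (38.5%), while 5 of the 6 Ins1 cells had Iapp (83.3%). Of the 11 Ppy cells, 10 had Gcg (90.9%), and 10 had Iapp. Ins1 and Ins2, which in adult β cells are made side by side, were both at 100 CPM or more in 4 cells.

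In the 2 cells of highest Gcg, nearly all hormone transcripts were Gcg and Pyy. Cell D10 on plate 8B had Gcg at 141047 CPM and Pyy at 20818 CPM, and the 8 members together took 16.3% of its counts. Cell B12 on the same plate had Gcg at 125429 CPM and Pyy at 14344 CPM, without Ppy, Sst or Ghrl. Its Ins1 was at 306, Ins2 at 209 and Iapp at 39.1 CPM. Over the 14 Gcg cells, Gcg and Pyy made 85.2% to 99.9% of the summed members, and the ratio of Gcg to Pyy in CPM, not scaled to length, ranged from 0.757 (H3 on plate 8B) to 8.74 (B12 on plate 8B) with a median of 3.90.

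Cells A12 and H3 on plate 8B are described next. Cell A12 on plate 8B had all 8 members at 100 CPM or more, with Gcg at 51688, Pyy at 26725, Sst at 3587, Iapp at 960, Ins1 at 590, Ghrl at 467, Ins2 at 326 and Ppy at 153.3 CPM. Cell H3 on plate 8B had the highest Ins1 (1305 CPM), Ins2 (1196 CPM) and Iapp (3091 CPM) of all cells, and with them Gcg at 19525, Pyy at 25804 and Ppy at 2294 CPM. In CPM, which is not scaled to length, Pyy exceeded Gcg in 2 Gcg cells, H3 and D7 on plate 8B.

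**Figure D3:**
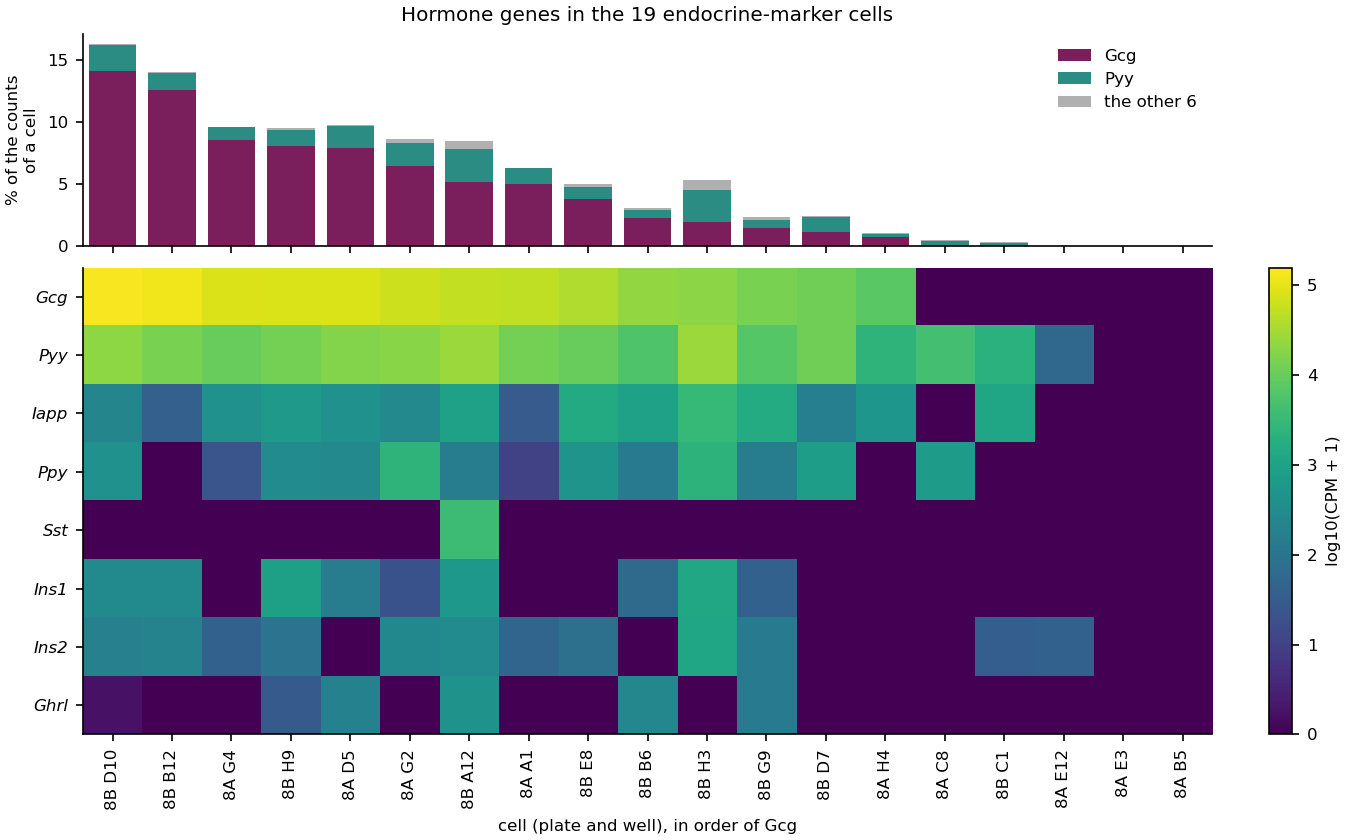
The 19 endocrine-marker cells in order of Gcg. Bars give the percentage of all counts of a cell taken by Gcg, Pyy and the other 6 members, up to 16.3%, and the map below gives each member as log10(CPM + 1), with Pyy reaching further right than Gcg and Sst in a single cell.

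No doublet caller was run, so depth and markers of other cells were set beside the overlap. The 16 cells with 2 or more members had 555406 to 1213544 counts (median 786756) and 6811 to 9542 genes (median 8116), within the range of the 89 other epithelial cells for counts (474482 to 1237713, median 848158) and genes (4250 to 9933, median 7542). The 3 endocrine-marker cells with 0 or 1 member had 780839 to 888780 counts. With 6309 to 6759 genes, each had fewer genes than any of the 16. The summed level of 10 mesenchyme genes was 1.28 to 479 CPM in the 16 cells (median 148.6). Among them Col1a2 was at 156.5 CPM over the 16 cells and present in 14, while Col3a1 was at 0 in the 14 Gcg cells and Col1a1 at 3.35 CPM or less. Of 9 blood genes 6 were at 0, the 8 immune genes summed to at most 719 CPM (median 30.4), with C1qa present in 7 cells, and Pecam1, at 38.5 CPM in all 16, was at 32.5 CPM in the other epithelial cells too. The part of these transcripts in the overlap was not tested, and such values do not bear on doublets of endocrine cells with each other.

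The 5 endocrine-marker cells without Gcg were each different. C8 on plate 8A had Pyy at 4333 and Ppy at 741 CPM. C1 on plate 8B had Pyy at 2111, Iapp at 1130 and Ins2 at 35.1 CPM with Chgb at 20780 CPM. E12 on plate 8A, with Neurog3 at 211 and Fev at 2018 CPM, had Pyy at 52.5 and Ins2 at 40.98 CPM. E3 on plate 8A, with Neurog3 at 2104 and Pax4 at 1210 CPM, and B5 on plate 8A, with Chgb at 7841 and Chga at 1086 CPM, had no count of any member. These cells had 681462 to 968936 counts each, within the range of the 14 cells with Gcg.

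Neurog3 encodes the factor that starts the endocrine program. Of the 89 other epithelial cells, 17 had Neurog3 at 20 CPM or more, up to 4923 CPM, and their summed hormone genes ranged from 0 to 40.2 CPM with a median of 0, with at least 1 count of a member in 6 of the 17. The cell at 40.2 CPM had the highest Neurog3 of all and owed this to Iapp. Among the endocrine-marker cells Neurog3 reached 20 CPM in 5, of which 4 had at least 1 count of a member and 3 had a member at 100 CPM or more. One further Prox1-GFP cell had endocrine markers but no Epcam, with Chgb at 20578, Chga at 2865 and Neurod1 at 1842 CPM, and it had no count of any member. This cell also had Krt8 at 3011, Prox1 at 2811 and Cdh1 at 190 CPM, with Col3a1 at 0. The Epcam cut thus left a cell with epithelial genes out of the endocrine-marker cells.

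The values of several genes are set side by side for the 14 endocrine-marker cells with Gcg and the 5 without, and for each gene named here the ranges overlapped. Pcsk1, a convertase known for cutting proinsulin and, in the gut, proglucagon to GLP-1, was at 308 to 977 CPM in the 5 cells without Gcg and at 0 to 864 CPM (median 36.2) in the 14 with it, 6 of which had no count. Pcsk2, the convertase that yields glucagon in α cells, was at 427 to 2568 CPM (median 1479) in the 14 and at 0 to 2378 CPM (median 1059) in the 5, of which 4 had it. Prox1 had a median of 1690 CPM in the 5 cells and 559 CPM in the 14, and Chgb, a granule protein, 7309 and 584 CPM. Ttr, a carrier protein abundant in α cells, ran the other way with 444 and 9450 CPM. Other genes of hormone granules did not all follow Chgb. In the 5 and the 14 cells, medians were 812 and 1023 CPM for Chga, 281 and 950 CPM for Pcsk1n and 2996.5 and 2865 CPM for Cpe.

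Over the 19 cells, Spearman correlations with Gcg were 0.78 for Pyy, 0.70 for Ttr, 0.61 for Ins1, 0.54 for Ins2, 0.30 for Ppy, 0.22 for Iapp, -0.68 for Pcsk1 and -0.70 for Prox1. The cells form a set with and a set without Gcg, so the values within the 14 Gcg cells are given too, and these were 0.48 for Pyy, 0.38 for Ttr, 0.36 for Ins1, 0.30 for Ins2, -0.07 for Ppy, -0.41 for Iapp, -0.36 for Pcsk1 and -0.63 for Prox1. These are descriptions over few cells of 1 line, and CPM values of a cell share their total, of which Gcg took up to 14.1%. With the 8 members and the mitochondrial genes left out of the total, the value for Prox1 was -0.57 and that for Iapp -0.40. Among the genes of the lists below compared over the 19 cells, Ttr was highest with Gcg, and Prox1 and Pcsk1 lowest. They are thus extremes of many genes. Nor are they particular to Gcg, as correlations with Pyy were 0.70 for Ttr, -0.68 for Pcsk1 and -0.54 for Prox1.

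**Figure D4:**
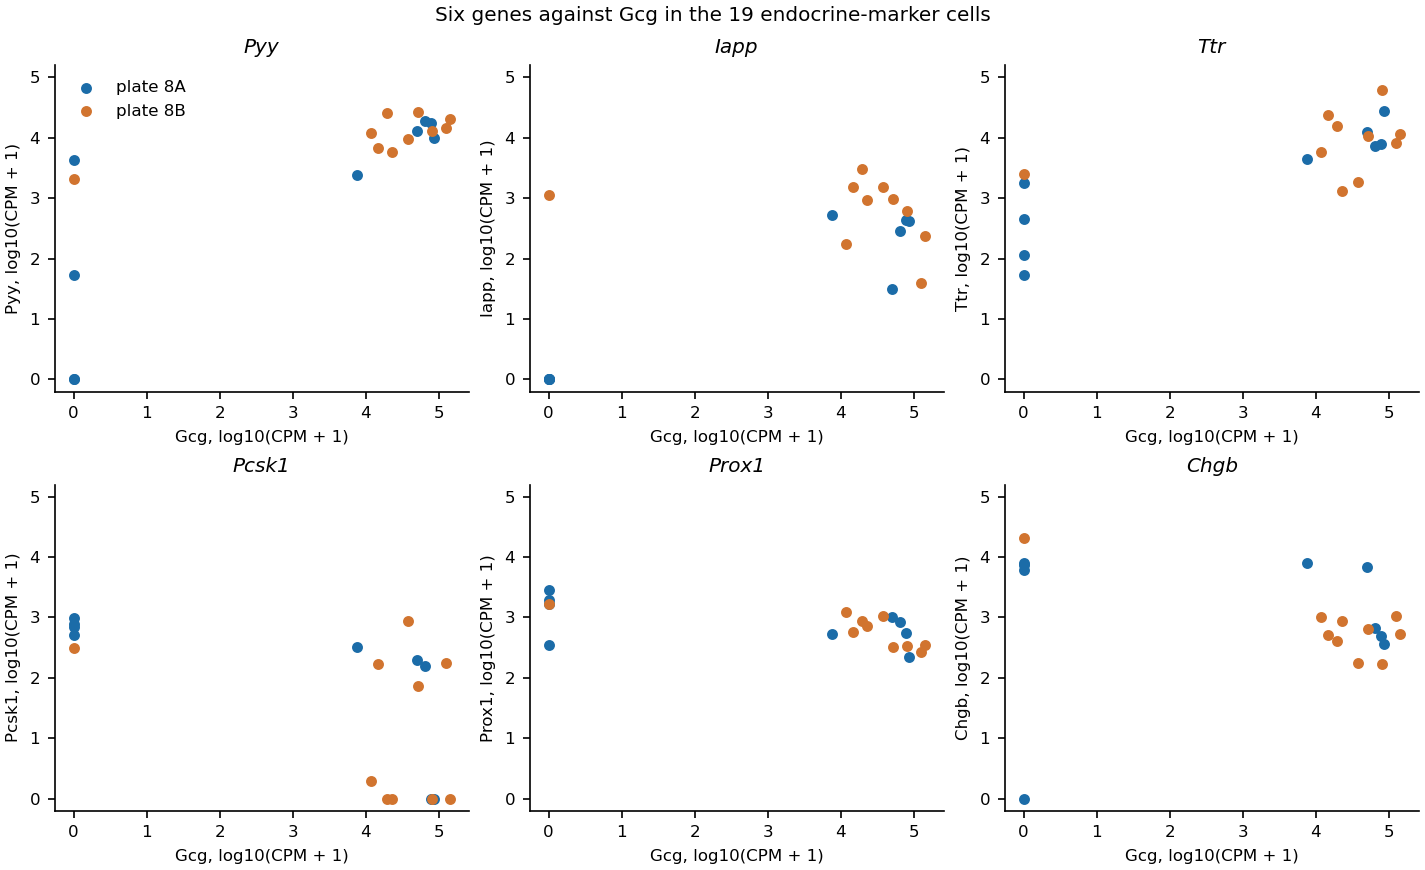
Pyy, Iapp, Ttr, Pcsk1, Prox1 and Chgb against Gcg in the 19 endocrine-marker cells, as log10(CPM + 1), coloured by plate. The 5 cells without Gcg stand at the left edge, with Pcsk1 at 308 to 977 CPM in all of them, and within the 14 Gcg cells Prox1 tends to be lower where Gcg is higher (Spearman correlation -0.63).

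Over all epithelial cells, likeness mainly reflects which cells are endocrine. Among 14136 genes found in at least 10% of epithelial cells, those among the 10 nearest to Gcg by Spearman correlation were Cartpt (0.68), Gal (0.66), Sez6l2 (0.64), Iapp (0.63), Isl1 (0.63), Ptprn (0.63), Irx2 (0.61), Upp1 (0.61) and Scg2 (0.61). Nearest to Pyy was Irx2 (0.82), a homeodomain gene of α cells, then Resp18, Ptprn, Sez6l2, Disp2, Nap1l5, Pcsk1n, Fev and Cartpt (0.74). Cartpt, which encodes the CART peptide, was nearest to Ppy (0.88), followed by Irx1, Irx2, Sez6l2, Slc2a5, Pde6c, Resp18, Pik3c2g and Ptprn (0.82). For Iapp the order was Slc2a5 (0.88), Irx2, Sez6l2, Ptprn, Resp18, Cartpt, Scg5, Slc14a2 and Nap1l5 (0.79). Ins1 had Calca, the calcitonin gene, first (0.82), then Unc80, Scg5, Pnoc, Gal, Th, Ppy, Cartpt, Nap1l5 and Gpr119 (0.70). Ins2 had Gpr119 first (0.83), then Ptprn, Cdhr1, Irx2, Resp18, Scg2, Tff3, Gast, Prrt1 and Ttll3 (0.75).

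Genes that process and store peptide hormones were higher in the same cells. All 16 prohormone processing and granin genes were at least 4-fold higher in the endocrine-marker cells, with a median log2 fold change of 10.46 against -0.10 over all genes. Their summed levels in CPM, not scaled to length, were 3497 for Chgb, 3106 for the carboxypeptidase Cpe, 1414 for Pcsk2 and 1033 for Chga. Of these 16, Chga and Chgb were used to choose the cells. For this list and those below, the shares over all 12442 genes at 5 CPM or more were 10.8% higher and 11.7% lower.

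Of 24 endocrine transcription factors, 15 were at least 4-fold higher, 1 was lower and 5 were neither, and 3 were under 5 CPM in both groups. Peg3 was at 4081 against 3104 CPM and did not pass. High CPM was also found for Isl1 (1049 CPM), Neurod1 (588 CPM) and Pax6 (426 CPM), which were, with Insm1, used to choose the cells. Irx2 (248 CPM, in 17 cells) and Fev (238 CPM, in 17 cells) had no count in the other epithelial cells. Pax4, a factor of the β and δ fates, was at 93.1 CPM in 8 cells, with its highest level in cell E3. Pdx1 was at 33.9 CPM against 134.3 CPM and Nkx6-1 at 95.2 against 107.3 CPM, and Hhex, needed for δ cells, was at 0.0317 against 77.6 CPM. The β-cell factor Mafa was found in 1 endocrine-marker cell, at 10.04 CPM.

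Of 16 genes of glucose sensing and secretion, 13 were at least 4-fold higher and 1 was lower. Ttr was at 9743 CPM, Abcc8, a subunit of the ATP-sensitive potassium channel, at 937 CPM and Syt13 at 378 CPM. The lower gene was Slc2a2, the glucose transporter GLUT2, with no count in the 19 cells and 117.98 CPM in the other epithelial cells.

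Other peptide hormones accompanied the 8 members. Of 21 genes in the tables, 9 were at least 4-fold higher, none was lower and 9 were under 5 CPM in both groups. The 21 include Ffar4, the gene of a fatty acid receptor and not of a peptide hormone. It was at 98.2 against 26.4 CPM and passed in neither direction. Cartpt was at 1071 CPM, in 13 cells and up to 7890 CPM. Secretin (Sct) was found in all 19 cells at 461 CPM, including both cells without a hormone gene of the list, and cholecystokinin (Cck) in 18 cells at 281 CPM. Gastrin (Gast) was at 386 CPM in 16 cells, most of it from cell A1 on plate 8A at 5098 CPM, which also had Gcg at 49902 and Pyy at 12738 CPM.

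Receptors for islet hormones were less uniform. Of 20 genes of such receptors and related proteins, 10 were under 5 CPM in both groups. Of the 10 at 5 CPM or more, 7 were at least 4-fold higher and 2 were lower, against 10.8% and 11.7% over all genes. Calcr, the calcitonin receptor that is part of the amylin receptor, was at 122.9 CPM in 7 cells, the somatostatin receptor Sstr2 at 106.3 CPM in 6 cells and the glucagon receptor Gcgr at 39.6 CPM in 8 cells. The 2 lower genes were relatives of the insulin receptor, Igf1r at 16.8 against 100.1 CPM and Insrr at 1.90 against 8.47 CPM. The insulin receptor gene Insr itself, at 23.3 against 29.1 CPM, passed in neither direction.

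Genes of the other epithelial fates ran in the opposite direction. Of 14 tip and acinar genes 11 were at least 4-fold lower and none higher, of 12 trunk and duct genes 6 were lower and 1 was higher, and of 14 proliferation genes 9 were lower and none higher. Tip and acinar genes of highest CPM in the endocrine-marker cells, not scaled to length, were Cpa1 (52.9 against 1176 CPM) and Pnliprp1 (19.6 against 240.2 CPM). Among trunk and duct genes, Prox1 had the highest CPM in the endocrine-marker cells (935 against 1520 CPM in the others) and did not pass. Spp1, the osteopontin gene, was at 0.697 CPM against 4164 CPM, and Sox9 at 26.2 against 688 CPM. Of the proliferation genes, Top2a (134.2 against 392 CPM) and Mcm2 (78.6 against 274.4 CPM) had the highest CPM in the endocrine-marker cells and did not pass, whereas Ccnb1 (64.03 against 463 CPM) and Pcna (48.3 against 287 CPM) were lower. Among the Gcg cells, 2 had Mki67 and Top2a at over 100 CPM, G2 on plate 8A at 1151 and 1401 CPM and G9 on plate 8B at 638 and 1761 CPM. Of 8 neural genes 4 were higher, among them Tubb3 (71.6 CPM), Elavl4 (57.3 CPM) and Ret (43.4 CPM). Of 10 mesenchyme genes 2 were higher, 4 were lower and 3 were under 5 CPM in both groups. The 2 were Col1a2 (132.1 against 29.4 CPM) and Pdgfra (5.51 against 0.252 CPM), the latter with counts in only 1 endocrine-marker cell. Of 8 immune genes 2 were higher (C1qa at 54.03 against 6.52 CPM and Csf1r at 12.4 against 0.488 CPM) and 6 were under 5 CPM. Most genes of the last lists could not be called, as 6 of 7 endothelium, 4 of 5 mesothelium and all 9 blood genes were under 5 CPM. The 1 endothelium and 1 mesothelium gene above that level passed in neither direction.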

How the data were processed

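Line, plate and well of each cell came from its label. The authors trimmed reads with Trim Galore 0.6.5, quantified them with kallisto on GRCm38 and summed transcripts to genes with tximport, and the deposited values are estimated counts per gene and cell with no normalization. Reads were single-end and PCR copies are counted, so intervals cover counting error only. Symbols are from GENCODE M21. The filter asked for 1000 genes and 100000 counts or more, with 13 mitochondrial genes taking 30% or less of counts, leaving 549 of 576, with 224814 to 1512736 counts each. CPM is the count per 1000000 counts of a cell, or of the summed cells of a group. Shares have exact binomial and sums exact Poisson 95% intervals. Folds used groups' summed counts with a floor of 3, and called means at least 4-fold among genes at 5 CPM or more in 1 of the groups. Likeness is Spearman correlation of log2(CPM + 1). Thinning drew 100000 rounded counts per cell without replacement. The named genes are the 8 members, in each list the 2 to 4 of highest CPM and, per member, the nearest 10, of which some are not reported here. Genes named beside these (Irx2, Fev, Pax4, Pdx1, Nkx6-1, Hhex, Mafa, Slc2a2, Igf1r, Spp1, Sox9, Ccnb1, Pcna, Pcsk1, Pcsk2, Prox1 and Neurog3 among them) were chosen after their values were seen. The members and lists were chosen with earlier results of these data known. Scripts used Python 3.11.15, numpy, pandas and scipy, and the fold and correlation steps were tested on simulated data. Library numbers of the Prox1-GFP plates form a series of their own, and a batch and the line cannot be told apart. Alternatives were other Epcam, marker and level thresholds, cell filters, totals, thinning, single plates, means over cells and leaving out the cell of the highest level.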

Additional observations from a re-analysis of the deposited data

How the results depend on the processing

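The percentage of epithelial cells with any member at 100 CPM or more was 14.8% and stayed within its interval under all 10 alternatives run, from 10.2% on plate 8A only to 20.4% on plate 8B only. The number of cells with 2 or more members, 16 as reported, was 6 with plate 8A only and 10 with plate 8B only, as each plate holds part of the cells, and 15 to 17 under the other 8 alternatives (Epcam at 5 or 100 CPM, a stricter cell filter or none, another total for CPM, thinning, and levels of 20 or 1000 CPM). All 8 members were at least 4-fold higher in endocrine-marker cells under 10 of 12 alternatives, and 7 were with plate 8A only or without the cell of the highest level, since Sst then had no count. The level of Gcg ranged from 29203 to 52371 CPM, both at the single plates. Without the cell of its highest level, Ins2 fell to 83.4 CPM, Ghrl to 31.7 CPM and Sst to 0. With a level of 1000 CPM in place of 100, the percentage of epithelial cells fell from 3.70% to 0% for Ghrl, from 5.56% to 0.926% for Ins1 and for Ins2, from 10.2% to 1.85% for Ppy and from 12.04% to 3.70% for Iapp, while that of Sst stayed at 0.926%.

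No paired analysis was possible because the result comes from no test. The comparison within each plate is given by the values of single plates above. With 1 sample per line, the spread between embryos is not known, and no interval includes it.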

Other observations

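Of the 27 wells that failed the filter, 1 on plate 8B held a single Gcg count among 22331 counts, which is 44.8 CPM and under the 134.3 CPM that 3 counts would make there. None of the other members had a count in a failed well. The 7 cells of the Nkx3.2 line with Epcam at 20 CPM or more had no count of any member, and no cell of the Nkx2.5 line reached that Epcam level. Among peptide genes outside the 8, Pnoc was at 160.5 CPM in 12 endocrine-marker cells, Calca at 60.99 CPM in 10, Npy at 66.4 CPM in 3 and Gip at 17.9 CPM in 4.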
